A study of Mus musculus with 6 samples.

Results

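The report covers 10 transcription factor genes that form the regulatory core of blood stem and progenitor cells: Myb, Runx1, Gata2, Tal1, Lyl1, Lmo2, Fli1, Erg, Gata1 and Gfi1b. They were taken by symbol from the array annotation, and all 10 were found among the 19938 genes with a probeset that names 1 gene. Each of the 10 had a single such probeset, so no choice between probesets entered their values. The study put a lentivirus that carries mouse HLX, a homeobox transcription factor, into bone marrow cells of young adult wild-type FVB/nJ mice, and a matching empty lentivirus into control cells. The marrow cells had been sorted as Lin-Kit+Sca-1+, the fraction that holds stem cells and early multipotent progenitors. The HLX group had 3 arrays and its vector is written pCAD-HLX-IRES-GFP in the sample descriptions and pCAD-IRES-GFP-Hlx in the protocol. The control group had 3 arrays with pCAD-IRES-GFP. Cells of both groups were exposed to virus with polybrene, grown in serum with stem cell factor, IL-3 and IL-6, and sorted for GFP after 2 days, so the arrays measure transduced cells in short culture. The labels do not say whether replicates came from separate mice or cultures, so the spread behind each p-value is that of these samples and can include technical variation.

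These factors act together on shared enhancers. TAL1 and LYL1 are closely related basic helix-loop-helix proteins that bind DNA with E proteins. LMO2 bridges them to a GATA factor and to LDB1, and RUNX1 and the ETS proteins FLI1 and ERG join the same regulatory elements in stem and progenitor cells. GATA2 is the GATA factor of stem cells, progenitors and mast cells, and GATA1 takes its place as erythroid and megakaryocytic cells form. GFI1B is a zinc finger repressor of erythroid and megakaryocytic cells that recruits the LSD1 demethylase, and MYB is needed for the proliferation of progenitors and for definitive blood formation.

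All 6 arrays were alike over the whole table, with pairwise correlations of 0.980 to 0.987 and median log2 levels of 6.32 to 6.40 over probesets. Hlx, which checks the labels, had log2 levels of 10.75, 9.74 and 10.28 in HLX arrays against 6.99, 7.29 and 7.62 in control arrays, a 7.75-fold difference with an adjusted p of 0.0782 from limma, a linear model with a moderated variance. Kit, the receptor used in the sort, lay at 9.31 to 9.59 in HLX arrays and 9.20 to 9.53 in control arrays, and Ly6a, which encodes Sca-1, is not analysed here. Of the markers of erythroid cells 4 of 4 lay below the median level of all genes, as did 7 of 7 for mast cells and basophils, 6 of 7 for mature T and B cells, 7 of 8 for mature granulocytes and macrophages, 5 of 8 for endothelial and stromal cells and 1 of 5 for megakaryocytes and platelets.

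The core factors were bright genes in these cells. Of the 10, 7 stood among the brightest 4984 of the 19938 genes, by mean log2 level over the 6 arrays, and none was below the median. A rank orders probeset signal, which also depends on how well each probeset hybridises, so it is a description and not a measure of transcript number. The ETS factor gene Fli1 stood highest, at rank 883 with a mean log2 level of 10.15 (SD 0.12, 6 arrays). Myb followed at rank 1101 (9.89), then Lmo2 at 1204 (9.79), Runx1 at 1884 (9.26), Erg at 1960 (9.21), Gfi1b at 2148 (9.09) and Lyl1 at 2621 (8.86). A step of 0.98 log2 units separated Lyl1 from Gata2, at rank 5074 (7.88), and Tal1 was beside Gata2 at rank 5297 (7.81). Gata1 was the dimmest, at rank 8825 (6.81), a further 0.99 log2 units down.

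Several neighbours in this order were not separated by their spread. Runx1 and Erg differed by 0.05 ± 0.29 (SD of the difference within an array, n = 6 arrays), and Runx1 was the brighter in 2 of 6 arrays. Gata2 lay above Tal1 in 5 of 6 arrays, by 0.07 ± 0.22. Gfi1b ranged most among the members, between 8.58 and 9.69, and stood anywhere from the second to the seventh of the 10. The steps from Lmo2 to Runx1, from Lyl1 to Gata2 and from Tal1 to Gata1 held in 6 of 6 arrays each. By group means, Myb was the third of the 10 with HLX and the highest with the control vector, and Gata1 was the lowest with either.

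**Figure D1:**
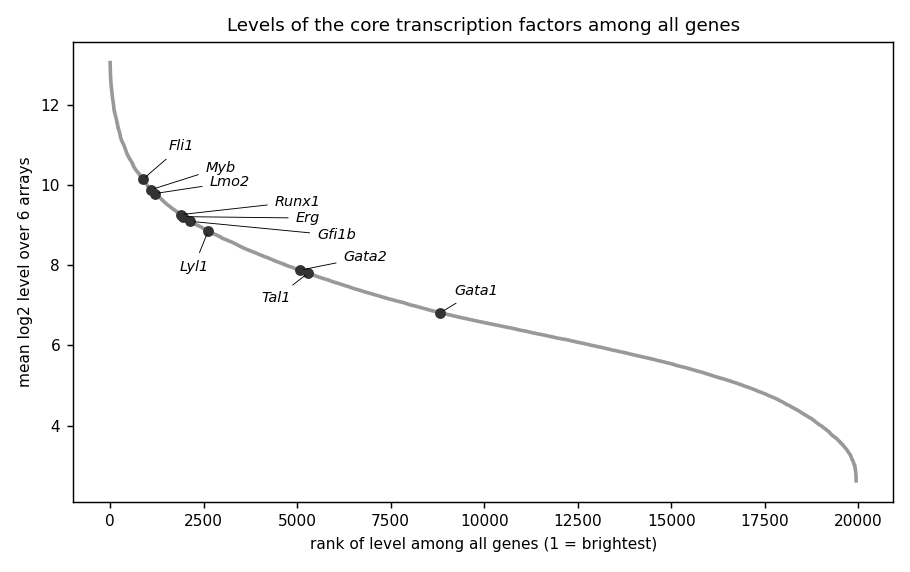
Mean log2 level over the 6 arrays (y axis) against the rank of that level among 19938 genes (x axis, 1 is the brightest). The grey line is all genes and the points are the core transcription factors, from Fli1 at rank 883 to Gata1 at rank 8825.

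Myb had the largest difference of the 10 between the vectors. Its log2 levels were 9.58, 9.66 and 9.60 in HLX arrays, against 10.12, 10.13 and 10.22 in control arrays. The groups were tight and far apart: the brightest HLX array lay 0.46 log2 units below the dimmest control array. Mean levels were 9.62 ± 0.043 with HLX and 10.15 ± 0.053 with the control vector (SD, n = 3 each), and 2.74% of genes had a smaller spread pooled over the groups. Myb was 1.45-fold lower with HLX (95% interval from limma 1.26 to 1.68), a log2 difference of -0.54 ± 0.088 (SE). In rank of level it stood at 1426 with HLX and at 866 with the control vector. Ordered by the p of limma it was the twelfth of 19938 genes, and its adjusted p over all of them was 0.662, which misses the threshold of 0.05. By an exact permutation test over the arrays p was 0.1, and a design of 3 against 3 cannot give less. Under 15 other ways of processing or leaving out arrays the log2 difference stayed between -0.57 and -0.51 and the adjusted p from limma between 0.496 and 0.999.

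No core factor was called at an adjusted p under 0.05 by limma, and no gene of the whole table was (0 of 19938, 0%), with an adjusted p of 0.9999 for each of the 9 members other than Myb. With a trended and robust variance prior 1 gene was, Hlx. At an unadjusted p under 0.05 stood 2 of the 10 members, Myb lower and Gata1 higher, where 958 genes (4.8%) stood over the whole table, 2.36% lower and 2.44% higher. The HLX and control arrays did not overlap in 5 of the 10, Myb, Tal1 and Erg lower with HLX and Lyl1 and Gata1 higher, where the background was 9.19% of all genes, 4.85% lower and 4.34% higher. Among genes at or above the median probeset level it was 10.1%, 4.42% lower and 5.7% higher. The members split evenly in direction, 5 lower and 5 higher, with a median log2 difference of -0.0037 against -0.0078 over all genes. The median size of the difference, sign aside, was 0.18 log2 units for the members and 0.090 for all genes. Overlap depended on the scale. After median centring of the arrays 3 members were left without overlap, Myb lower and Lyl1 and Gata1 higher, where 9.92% of all genes had none. After quantile normalization or cyclic loess there were 4 in each case, Myb, Tal1, Lmo2 and Erg, all lower, and neither Lyl1 nor Gata1, where the shares of all genes were 10.2% and 10.4%. Myb was the member without overlap on each of these scales.

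**Figure D2:**
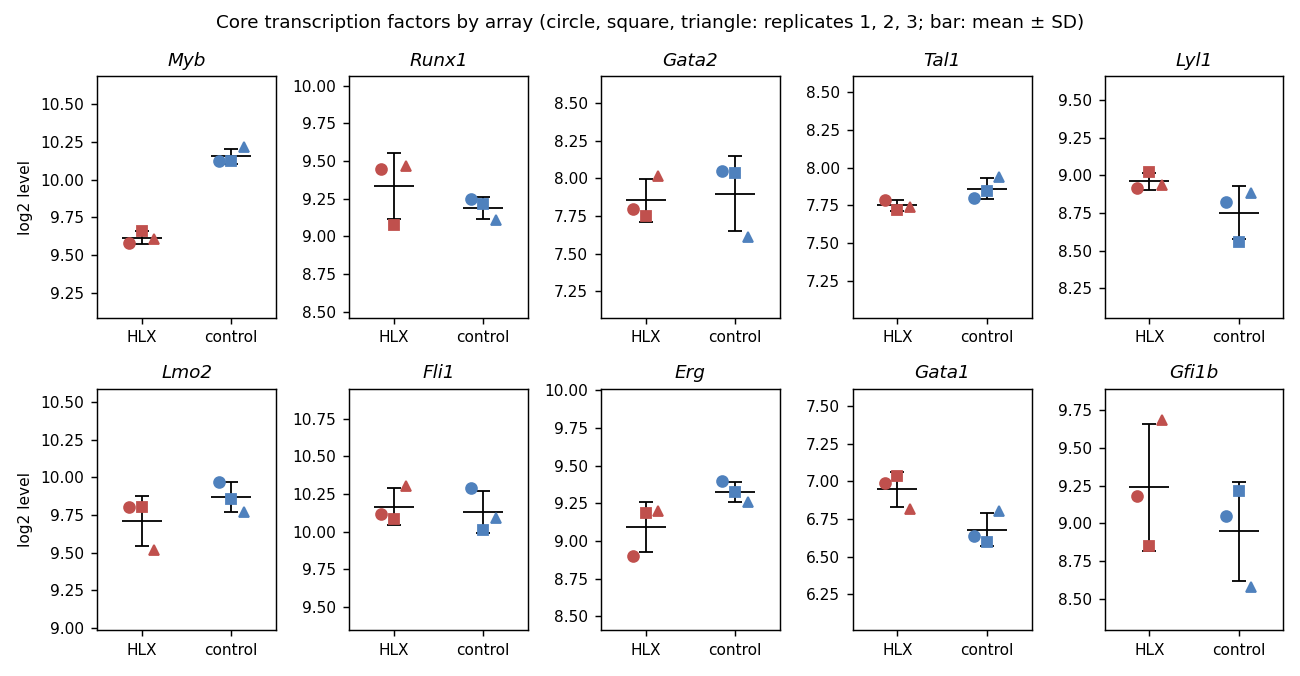
Log2 level (y axis) of each core factor in each array, with HLX arrays left and control arrays right. Circles, squares and triangles are replicates 1, 2 and 3, bars are mean ± SD, and each panel spans the same number of log2 units; the gap of 0.46 in Myb is the widest of the 10.

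Upstream sequence is shown for the members without overlap that have a single listed start, Myb, Lyl1 and Gata1, since they are the clearest lower value and the higher ones. Each window is the 250 bases before the start in RefSeq, build GRCm38.p6, read on the gene's strand. Capitals mark a motif on either strand: GATAA for GATA factors, CAGNTG for helix-loop-helix dimers, CCGGAA for ETS factors, TGNGGT for RUNX factors, AACNG for MYB and TAATTA as a homeodomain core. The motifs may share letters with each other. The Myb window is chr10:21160985-21161234 on the minus strand, the Lyl1 window is chr8:84701207-84701456 on the plus strand, and the Gata1 window is chrX:7967911-7968160 on the minus strand.
Myb: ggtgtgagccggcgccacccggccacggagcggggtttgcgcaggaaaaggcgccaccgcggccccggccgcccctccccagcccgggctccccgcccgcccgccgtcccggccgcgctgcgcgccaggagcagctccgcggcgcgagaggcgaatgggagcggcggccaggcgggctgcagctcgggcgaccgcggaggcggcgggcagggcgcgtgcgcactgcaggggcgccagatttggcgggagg
Lyl1: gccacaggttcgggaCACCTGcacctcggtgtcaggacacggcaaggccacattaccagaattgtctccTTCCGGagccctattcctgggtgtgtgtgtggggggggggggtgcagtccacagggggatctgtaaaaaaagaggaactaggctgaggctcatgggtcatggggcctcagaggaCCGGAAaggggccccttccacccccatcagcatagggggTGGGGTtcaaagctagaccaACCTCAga
Gata1: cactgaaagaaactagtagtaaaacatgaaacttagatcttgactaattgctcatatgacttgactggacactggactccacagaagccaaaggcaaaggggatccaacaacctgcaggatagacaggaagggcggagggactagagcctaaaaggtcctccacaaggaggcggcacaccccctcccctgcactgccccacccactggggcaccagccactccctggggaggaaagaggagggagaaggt
The Myb window is 81.2% G and C and holds none of the 6 motifs, and the Gata1 window, 54% G and C, holds none either. The Lyl1 window has 2 ETS motifs, starting 181 and 67 bases before the start, 2 RUNX motifs at 28 and 8 bases, and 1 helix-loop-helix motif at 235 bases. Over 32851 listed windows of the same length, 12.0% held the ETS motif, 40.1% the RUNX motif, 44.8% the helix-loop-helix motif, 22.6% the GATA motif, 74.2% the MYB motif and 4.84% the homeodomain core. Windows were listed for 8 members, 13 in all, of which 2 held the ETS motif, 3 each the GATA, RUNX and helix-loop-helix motifs, 7 the MYB motif and 2 the homeodomain core. A match is a run of letters and was not tested as a binding site.

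Among the helix-loop-helix factors, Lyl1 and Tal1 lay on opposite sides. Lyl1 had log2 levels of 8.92, 9.02 and 8.93 in HLX arrays against 8.82, 8.55 and 8.88 in control arrays. The groups were parted by 0.032 log2 units, and the control arrays were spread more widely (SD 0.17) than the HLX arrays (SD 0.058). Its log2 difference was 0.21 ± 0.11 (SE), 1.15-fold higher, with a 95% interval from limma of -0.062 to 0.47, and it was 0.11 without control replicate 2. Tal1 had levels of 7.79, 7.72 and 7.74 in HLX arrays against 7.80, 7.85 and 7.94 in control arrays, with the groups 0.012 apart. Its log2 difference was -0.11 ± 0.090 (SE), 1.08-fold lower, with an interval of -0.32 to 0.099, and it was -0.074 without control replicate 3. Within an array, Lyl1 minus Tal1 was 1.13, 1.31 and 1.19 log2 units with HLX and 1.02, 0.71 and 0.95 with the control vector, so the pair stood farther apart in each HLX array than in any control array. The change of 0.32 had an exact permutation p of 0.1, the smallest possible, and 0.15 after adjustment over 3 related pairs, which were chosen after their values were seen. Lmo2, the bridge of the complex, had 9.81, 9.80 and 9.52 in HLX arrays against 9.97, 9.86 and 9.77 in control arrays. HLX replicate 3 was the low one, and the other 2 HLX arrays lay inside the control range, for a log2 difference of -0.16 ± 0.12 (SE) with an interval of -0.43 to 0.12. Without HLX replicate 3 it was -0.063, and with array weights -0.11.

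The GATA factors gave a small higher value for Gata1 and none that kept its sign for Gata2. Gata1 had log2 levels of 6.99, 7.04 and 6.82 in HLX arrays against 6.64, 6.60 and 6.80 in control arrays. HLX replicate 3 and control replicate 3 nearly met, 0.015 apart. Gata1 was higher with HLX by a log2 difference of 0.27 ± 0.11 (SE), with a 95% interval from limma of 0.017 to 0.52. It no longer stood at an unadjusted p under 0.05 when HLX replicate 1 or 2 or control replicate 1 or 2 was left out. The log2 differences in those fits were 0.25, 0.22, 0.25 and 0.23, with an unadjusted p from limma of 0.10, 0.11, 0.099 and 0.12. Nor did it stand there with dim genes left out, the trended and robust prior or the replicate block. Without HLX replicate 3 and without control replicate 3, in turn, the difference was 0.33 and Gata1 still stood under 0.05. Gata2 had 7.79, 7.75 and 8.02 in HLX arrays against 8.05, 8.04 and 7.61 in control arrays, so replicate 3 was the highest array of one vector and the lowest of the other. Its log2 difference was -0.044 ± 0.15 (SE) with an interval of -0.39 to 0.30, and its sign turned when control replicate 1 or 2 or HLX replicate 2 was left out. Gata1 minus Gata2 within an array changed by 0.31 log2 units, with an exact permutation p of 0.2. Markers of the lineages that use these factors had sums that overlapped between the vectors. Mast cell and basophil markers had a summed linear signal of 255 to 279 in HLX arrays and 273 to 646 in control arrays, and the top of that range was control replicate 1, where the carboxypeptidase gene Cpa3 was at a log2 level of 7.48 against 4.77 to 4.96 in HLX arrays and 4.99 and 5.10 in the other control arrays. The 4 erythroid markers summed to 221 to 248 with HLX and 219 to 241 with the control vector. The 5 megakaryocyte and platelet markers were brighter and summed to 1035 to 1297 in HLX arrays and 917 to 2295 in control arrays, the top again being control replicate 1. Among them the platelet factor gene Pf4 had log2 levels of 9.62, 9.42 and 8.26 in HLX arrays against 10.73, 8.74 and 9.40 in control arrays, at rank 1744 of level. In bulk samples fewer cells of a type and less RNA per cell cannot be told apart, and the part of these markers in the GATA values was not tested.

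Of the ETS factors, Erg was lower and Fli1 had a difference near 0. Erg had log2 levels of 8.90, 9.18 and 9.20 in HLX arrays against 9.40, 9.32 and 9.26 in control arrays. HLX replicate 1 was well below the rest, and the highest HLX array, replicate 3, lay 0.061 below the lowest control array. The log2 difference was -0.23 ± 0.11 (SE), with an interval of -0.50 to 0.034, and it was -0.14 without HLX replicate 1. With array weights the difference was -0.27, and Erg stood at an unadjusted p under 0.05 from limma. Fli1 had 10.11, 10.08 and 10.30 in HLX arrays against 10.29, 10.01 and 10.09 in control arrays, an almost complete overlap. Its difference of 0.037 ± 0.11 (SE) had an interval of -0.23 to 0.31, and its sign turned without control replicate 2 or HLX replicate 3. Erg minus Fli1 changed by -0.27 log2 units between the vectors, and the groups did not overlap (exact permutation p of 0.1, 0.15 after adjustment over the 3 pairs). Both genes are also expressed in endothelial cells. Markers of endothelial and stromal cells summed to 775 to 818 in HLX arrays and 870 to 937 in control arrays. Of these 8 markers 6 were lower and 2 higher with HLX. Pecam1, an adhesion gene also expressed by blood progenitors, was at 8.28, 8.34 and 8.18 in HLX arrays against 8.75, 8.46 and 8.59 in control arrays, without overlap (log2 difference -0.34 ± 0.11, SE, adjusted p = 0.932 from limma). Emcn had a log2 difference of -0.78 ± 0.37 (SE) with overlapping groups. Cdh5 and Kdr, the defining endothelial genes, had mean log2 levels of 5.85 and 5.40 with HLX and 5.91 and 5.43 with the control vector, below the median of all genes. The part of this signal in the Erg value was not tested.

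Runx1 and Gfi1b varied more between replicates than between vectors. Runx1 had log2 levels of 9.45, 9.08 and 9.47 in HLX arrays against 9.25, 9.22 and 9.11 in control arrays. Of the HLX arrays 2 were above every control array and replicate 2 was below them all. The log2 difference was 0.14 ± 0.13 (SE) with an interval of -0.16 to 0.44, and it was 0.27 without HLX replicate 2, 0.081 without HLX replicate 1 and 0.074 without HLX replicate 3. Only without HLX replicate 2 did Runx1 stand at an unadjusted p under 0.05 from limma. Gfi1b had 9.18, 8.85 and 9.69 in HLX arrays against 9.05, 9.21 and 8.58 in control arrays. Its highest and lowest arrays were HLX replicate 3 and control replicate 3, and its pooled spread was wider than that of 93.0% of genes. The log2 difference of 0.29 ± 0.24 (SE), the largest of the higher values, had an interval of -0.28 to 0.86 and was smaller than that spread of 0.38. Without control replicate 3 it was 0.11 and without HLX replicate 3 it was 0.07.

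**Figure D3:**
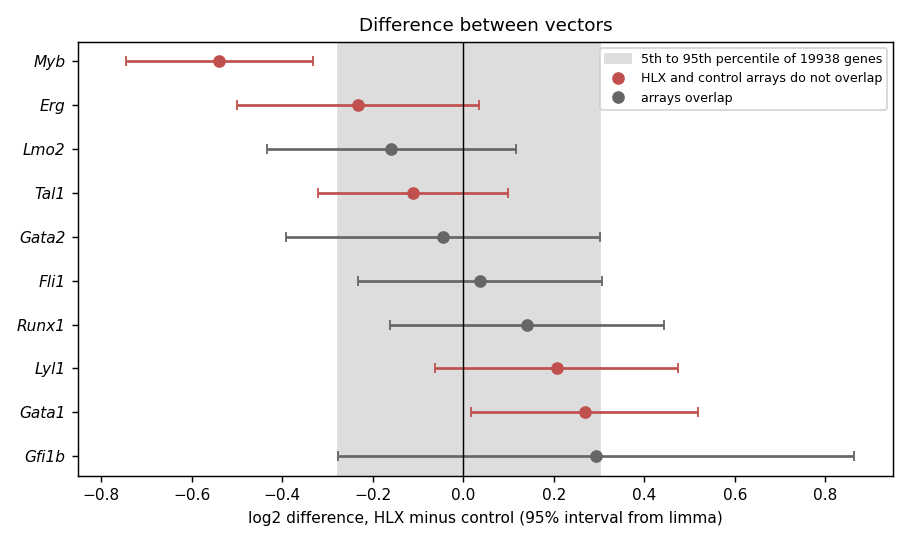
Log2 difference of each core factor, HLX minus control (x axis), with its 95% interval from limma. Red points are members whose HLX and control arrays do not overlap, grey points those that do, and the grey band holds the 5th to 95th percentile of 19938 genes (-0.28 to 0.30); Myb alone lies outside the band.

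Genes whose log2 values over the 6 arrays ran most like Myb were sought among the 9969 genes at or above the median level, by the root mean square difference of centred values. The closest was Sipa1l1, a GTPase activating protein gene, at 0.083 log2 units, with levels of 7.69, 7.76 and 7.49 in HLX arrays and 8.26, 8.24 and 8.30 in control arrays. Elmo1, which encodes a partner of DOCK proteins in RAC activation, followed at 0.089, and Pik3ip1, an inhibitor of PI3 kinase, at 0.092. Their log2 differences were -0.62, -0.40 and -0.43. A search for likeness to Myb finds genes with the same step between the vectors, and none of the 3 passed the adjusted threshold of limma (adjusted p = 0.662, 0.901 and 0.901). The genes nearest to Gata1 were Dbnl (0.043), Pitpnb (0.044) and Sqle (0.044), with log2 differences of 0.21, 0.19 and 0.29.

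Partners and cofactors of the core factors showed no call. Of 24 measured, 13 were higher and 11 lower, with a median log2 difference of 0.039. Without overlap were 1 higher and 3 lower, where the background was 4.34% of all genes higher and 4.85% lower. At an unadjusted p under 0.05 stood 2 higher and 1 lower, where the background was 2.44% and 2.36% of all genes. Hhex, a homeobox gene of blood progenitors and endothelium, had log2 levels of 8.64, 8.77 and 8.12 in HLX arrays against 9.08, 9.14 and 9.21 in control arrays. HLX replicate 3 was the lowest, and the 2 groups were well separated. It was 1.55-fold lower (-0.63 ± 0.17, SE, adjusted p = 0.901 from limma). Cbfa2t3, which encodes the corepressor ETO2 of the TAL1 complex, was at 9.04, 9.13 and 9.17 with HLX and 8.58, 8.86 and 9.0 with the control vector, a difference of 0.30 ± 0.13 (SE). The groups lay just apart for it, and the difference was 0.11 with the mean of its probesets and 0.18 without control replicate 1. The third was Spi1, the gene of the myeloid ETS factor PU.1, which is named here after its value was seen. Spi1 was at 9.19, 9.58 and 9.96 with HLX and 8.44, 8.77 and 9.43 with the control vector. Its groups overlapped, and its log2 difference of 0.70 ± 0.28 (SE) was the largest of this list in size. Ldb1, the dimerising cofactor that LMO2 binds, had a difference of -0.13, with its groups 0.013 apart. The RUNX partner gene Cbfb had a difference of 0.04. The E protein genes Tcf3, Tcf12 and Tcf4 had differences of 0.05, 0.04 and 0.04, and Kdm1a, which encodes LSD1, one of 0.07.

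Relatives of the core factors within their families were mostly dim, with 8 of 14 measured below the median of all genes. In the fit to all 6 arrays none of them reached an unadjusted p of 0.05, and none was without overlap. Differences ran from -0.15 to 0.45, with 9 higher, 5 lower and a median of 0.036. The smallest p belonged to Mybl1, the A-Myb gene, at 7.13, 6.65 and 6.13 with HLX and 6.19, 6.43 and 5.94 with the control vector, a log2 difference of 0.45 ± 0.25 (SE). HLX replicate 1 was the highest and the groups overlapped. The difference was 0.21 without HLX replicate 1, and 0.61 with array weights and 0.71 without HLX replicate 3, where it stood at an unadjusted p under 0.05. Runx3 was bright, at 10.37, 10.90 and 11.14 with HLX and 10.09, 10.58 and 10.78 with the control vector, and its groups overlapped. Its log2 difference was 0.32, and 0.12 to 0.54 when 1 array was left out, with an unadjusted p under 0.05 without HLX replicate 1. Runx2 is not analysed here.

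Genes proposed as targets of MYB in other systems lay on balance below 0. Of 12 measured, 8 were lower and 4 higher, with a median log2 difference of -0.089 against -0.0078 over all genes, and 3 lower and 0 higher stood at an unadjusted p under 0.05, again beside a background of 2.36% and 2.44%. None was called by limma over all genes, and 2 were without overlap, both lower, where the background was 9.19% of all genes and 4.85% lower. Flt3, a receptor of multipotent and lymphoid progenitors, had 8.81, 8.57 and 8.19 in HLX arrays against 9.12, 9.21 and 9.29 in control arrays. Each HLX array was below each control array, for a lower mean (-0.68 ± 0.16, SE, adjusted p = 0.901). Mecom, a regulator of stem cell maintenance, was at 6.93, 6.16 and 6.49 with HLX and 7.54, 7.11 and 7.37 with the control vector, 1.76-fold lower. The myeloperoxidase gene Mpo, named after its value was seen, was at 7.37, 8.70 and 7.64 with HLX and 8.46, 9.41 and 9.32 with the control vector. HLX replicate 2 lay above control replicate 1, so the groups overlapped. Kit, at a log2 difference of 0.088, and Cdk6, at -0.14, had overlapping groups. Since Flt3 and Mecom were among the lower genes already known when the list was made, the list is not independent evidence of a direction.

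Genes proposed as targets of the GATA, SCL (TAL1) and RUNX factors were split. Of 17 measured, 8 were higher and 9 lower, with a median log2 difference of -0.049. Without overlap were 1 higher and 3 lower, where the background was 4.34% of all genes higher and 4.85% lower. At an unadjusted p under 0.05 stood 1 in each direction, where the background was 2.44% of all genes higher and 2.36% lower. The lower one was Hhex, as above. The higher one was Csf1r, the receptor gene of macrophage colony-stimulating factor, at 6.49, 7.80 and 8.92 in HLX arrays against 6.28, 6.48 and 6.37 in control arrays. HLX replicate 1 was level with the control arrays and replicate 3 far above them. The log2 difference was 1.36 ± 0.53 (SE), with an interval of 0.12 to 2.60. It was 0.77 without HLX replicate 3 and 1.99 without HLX replicate 1, and stood at an unadjusted p under 0.05 in 1 of the 6 fits that left out an array, that without HLX replicate 1. Markers of mature granulocytes and macrophages, a list that holds Csf1r, summed to 474 to 845 in HLX arrays and 373 to 395 in control arrays. Of the 8, 5 were higher and 3 lower. The integrin gene Itgam was at 7.24, 6.91 and 6.72 in HLX arrays against 6.49, 5.72 and 5.99 in control arrays, without overlap, a log2 difference of 0.89 ± 0.22 (SE, adjusted p = 0.901 from limma). The macrophage gene Adgre1 differed by 0.32 and the granulocyte genes S100a9, S100a8, Ltf, Ly6g and Camp by 0.17, 0.07, -0.093, -0.15 and -0.19 log2 units. Markers of mature T and B cells summed to 444 to 487 with HLX and 510 to 646 with the control vector. Of these 7, 5 were lower and 2 higher. Cd79b was at 7.45, 7.28 and 7.36 in HLX arrays against 8.49, 7.63 and 7.86 in control arrays, without overlap. Its log2 difference was -0.63 ± 0.21 (SE, adjusted p = 0.936 from limma), and those of the others ran from -0.12 to 0.022. The part of these markers in the values of the core factors was not tested.

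**Figure D4:**
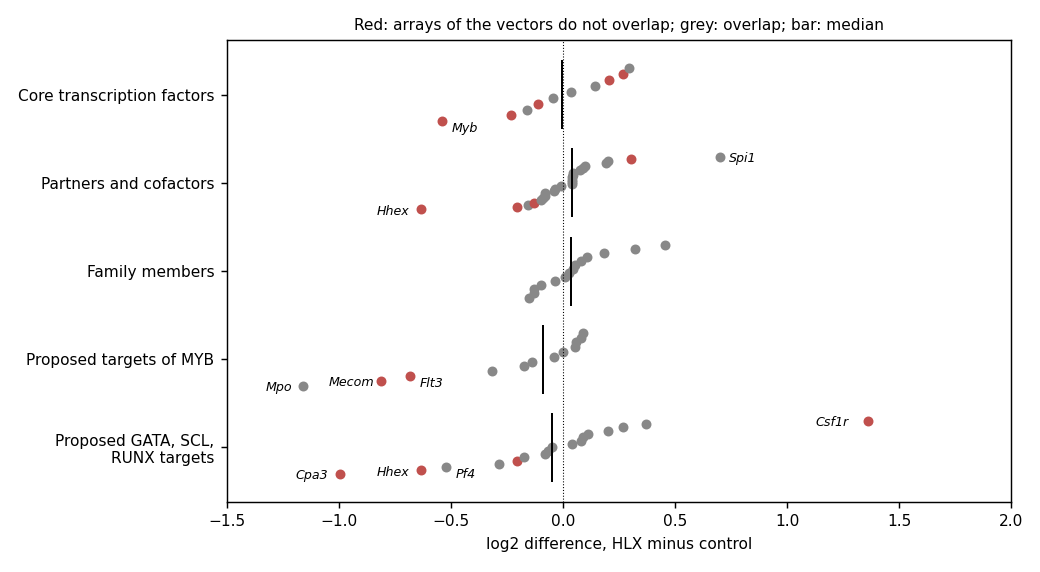
Log2 difference, HLX minus control (x axis), of each measured gene in the core factors and in the 4 lists around them (rows). Red points are genes whose arrays do not overlap between vectors, grey points those that overlap and bars are medians, from -0.089 for the proposed MYB targets to 0.039 for partners and cofactors; genes past 0.5 in size are named.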

How the data were processed

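The authors deposited log2 probeset levels, which per the submitters' processing notes come from RMA in Affymetrix Power Tools; their range shows the log2 scale. RMA corrects background and normalizes between arrays, which removes shifts common to most transcripts and compresses weak signals. Per the labels' protocols, RNA of 5000 to 10000 sorted cells was purified and 3 ng amplified with the NuGEN Ovation Pico system. The probesets' genome build, not given in the sources used here, was not needed. Of 35556 probesets 21789 named 1 gene, 1621 named several and 12146 are unnamed here. The brightest of those with 1 symbol was kept per gene, which left 19938 genes. Genes were fitted with limma 3.58.1 (lmFit and eBayes, R 4.3.3), 2-sided, on 4 residual degrees of freedom. Adjusted p-values are Benjamini-Hochberg values over the 19938 genes, called under 0.05. The SE is limma's moderated SE. The code was tested on simulated data. Figures used matplotlib 3.10.9.

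The members, gene lists and tests were chosen with earlier results of these data known. Named genes are the 10 members, Hlx, from each list up to 4 non-overlapping genes with unadjusted p under 0.05 or otherwise the 2 of smallest p, and the nearest profiles; others named are marked or illustrate a role. Not every such gene of the marker lists is printed. Precision is limited by having 3 arrays a group. Alternatives were filters on dim genes, other normalizations, variance priors, array weights, the replicate number as a block, the mean of probesets and leaving out arrays.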

Additional observations from a re-analysis of the deposited data

How the results depend on the processing

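The number of genes called by limma was 0 under each alternative except the trended and robust prior, where it was 1, Hlx, with a log2 difference of 2.95 and an adjusted p of 0.0377. Called members and called list genes were 0 under each alternative. Hlx had log2 differences of 2.71 to 3.21 when 1 array was left out. Members at an unadjusted p under 0.05 numbered 1 in place of 2 with dim genes left out, with the trended and robust prior, with the replicate block, and without both arrays numbered 1 (chosen after the data were seen), and 1 to 2 when 1 array was left out. With array weights they numbered 3, Erg being the added one. Without HLX replicate 2 the 2 were Myb and Runx1, and not Gata1. Members without overlap numbered 3 after median centring. From 7 to 8 members were among the brightest 4984 genes when 1 array was left out. Signs turned in some fits. Over the fits that left out 1 array, differences ran from -0.19 to 0.030 for Gata2, -0.032 to 0.12 for Fli1, -0.016 to 0.18 for Kit, -0.013 to 0.24 for Epb42 and -0.96 to 0.033 for Pf4. Without both arrays numbered 1 Gata2 was at 0.060, Kit at -0.064 and Epb42 at -0.040. The causes were not tested. Deviations of same-numbered arrays correlated at 0.20, 0.0085 and 0.14, and those of differently numbered arrays at -0.23 to 0.11. These values do not settle whether the numbers pair the arrays. With the replicate block genes at an unadjusted p under 0.05 numbered 1205 in place of 958, and list genes 11 in place of 7, Runx3 and Mybl1 among them with unchanged differences of 0.32 and 0.45. List genes there numbered 3 to 7 when 1 array was left out, with 3 without control replicate 2 and 4 without HLX replicate 3.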
